A study of Cavia porcellus with 10 samples.

Results

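The collagen chain genes are the 37 of 25028 guinea pig genes in the deposited table whose gene name reads COL, a number, the letter A and a number. The rule reads the gene name and no measured value. They fall into 9 collagen classes. No gene in the table carries the name COL3A1 or COL6A1, so these chains were not analysed here. Collagens are triple helices built from 3 such chains. Fibril-forming types carry the tensile load of connective tissue, and other types lie on the surface of fibrils, form the sheet of the basement membrane, link epithelium to stroma or cross the cell membrane. The cervix is mostly fibrillar collagen with some smooth muscle under an epithelium, and the softening of its collagen before birth is a standard part of the description of cervical ripening.

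RNA was sequenced from the cervix of Hartley guinea pigs, an outbred strain, and no treatment or genetic change is given for any group. The 3 non-pregnant females (NP) were in estrus, the 3 mid-pregnancy females (MT) were at 43.6 ± 0.5 days of gestation and the 4 late-pregnancy females (LT) at 65.2 ± 1.2 days. Each animal belongs to 1 stage, and gestation was dated from the size and weight of the fetuses. The libraries were made from the polyadenylated RNA of the tissue. In these bulk samples fewer cells of a type and less RNA per cell cannot be told apart.

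The libraries held 18730665 to 27881572 reads on genes. Abundance is given in TPM, a measure of transcripts per unit of transcript length that sums to 1000000 in each animal. The test was limma on log2(TPM + 1), with all 10 animals in 1 fit and with a Benjamini-Hochberg adjustment over the 12645 genes that reached a mean of 3 TPM in at least 1 stage. All log2 fold changes below are on this scale, on which changes of weakly expressed genes come out too small, and a gene is called at an adjusted P under 0.05. The median tested gene moved by -0.14 (log2) between NP and MT, by -0.16 between MT and LT and by -0.28 between NP and LT, against -0.02, 0.00 and 0.00 when the TPM values were first scaled by median ratios. Markers of the tissue were present in every animal, with summed TPM over all animals of 8168 to 39435 for 8 smooth muscle markers, 168 to 3235 for 6 squamous and 676 to 1689.8 for 5 columnar epithelial markers (676 to 701 over the NP animals, 1033 to 1689.8 over the MT animals and 919 to 1164 over the LT animals) and 387 to 724 for 5 fibroblast markers. NP 1 stood apart in its stage, with 30766 TPM over the smooth muscle markers against 10523 and 8168 in the other NP animals, and 3235 TPM over the squamous markers against 1048 and 1021. Among the MT animals, MT 1 had 1232 TPM over the squamous markers against 168 and 418. Where a call printed below was lost or gained without NP 1, the value without it is given.

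Of the 37 genes, 29 reached the mean of 3 TPM in at least 1 stage and were tested. Below that mean in every stage were COL4A3, COL4A4, COL6A5, COL6A6, COL9A3, COL10A1, COL22A1 and COL28A1. The levels of the tested chains spanned more than 3 orders of magnitude. Type I chains were highest in every animal, with COL1A1 at 3495 to 7443 TPM and COL1A2 at 1335 to 2931 TPM. COL6A2, COL6A3, COL12A1, COL4A1, COL15A1, COL5A1, COL14A1, COL17A1, COL4A2, COL18A1 and COL5A2 followed in this order of their means over the 3 stages, from 713 TPM for COL6A2 to 108 TPM for COL5A2. Within a stage, replicate 1 had the highest TPM of 21 of the 29 tested chains in NP, of 22 in MT and of 21 in LT.

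**Figure D1:**
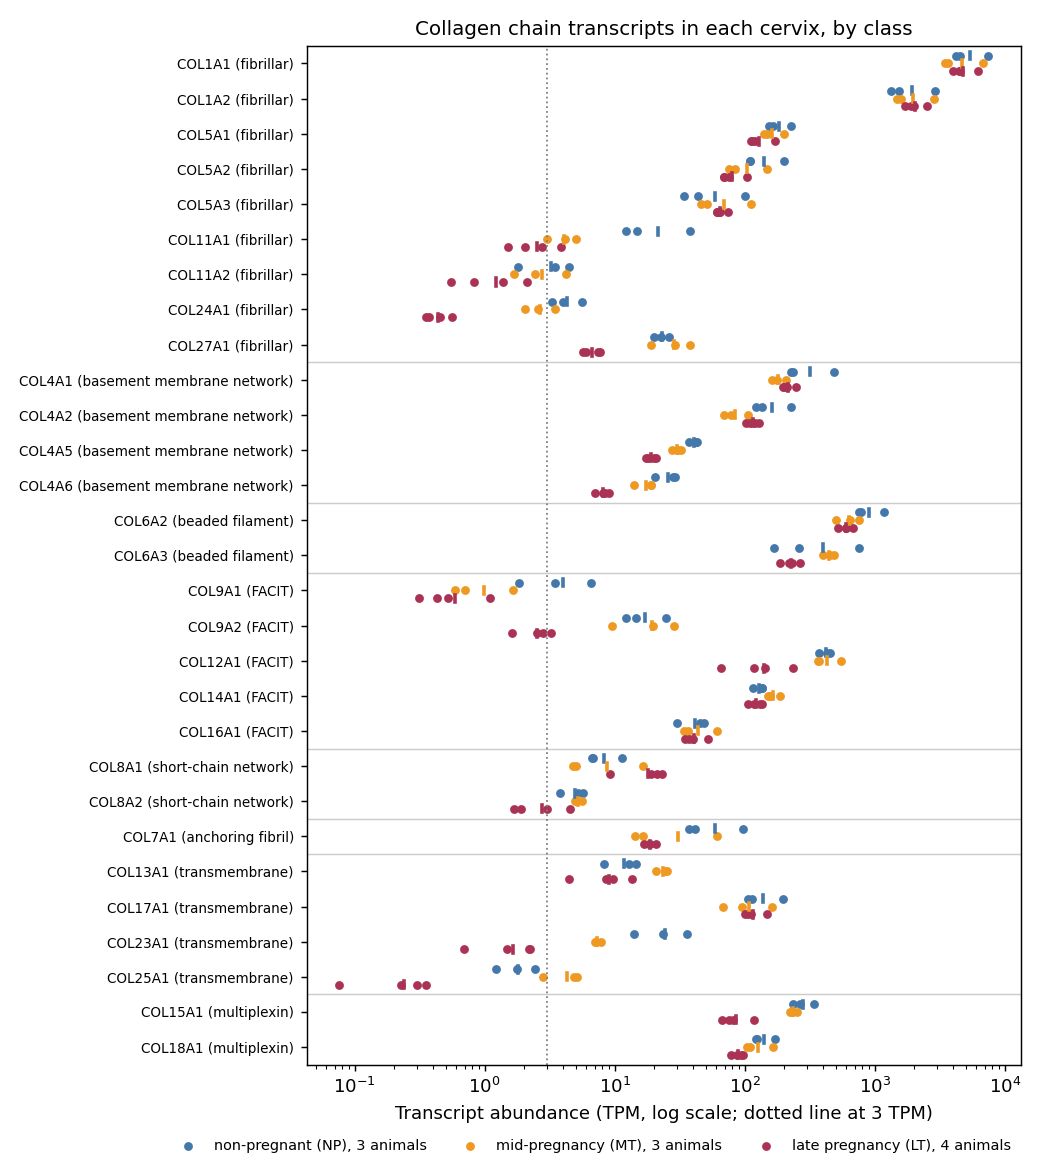
TPM of the 29 tested collagen chain genes on a log axis, grouped by class. Each point is 1 animal, coloured by stage, the short vertical bar is the stage mean, and the dotted line marks 3 TPM. The type I chains sit between 1335 and 7443 TPM in all 10 animals, whereas COL24A1, COL25A1, COL23A1 and COL9A2 in LT lie left of their NP and MT points.

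Between NP and MT, 7 of the 29 tested chains were called (24.1%), where 18.5% of all tested genes were called. COL25A1 was higher in MT, and COL11A1, COL4A2, COL4A5, COL4A6, COL9A1 and COL23A1 were lower. The lower calls were 20.7% of the chains, against 12.2% of all genes, and the higher calls of all genes came to 6.27%. All MT animals lay below all NP animals for 8 chains (27.6%), against 23.5% of all genes. All MT animals lay above all NP animals for COL13A1, COL14A1 and COL25A1 (10.3%), against 11.4% of all genes. The median log2 fold change of the chains was -0.18, against -0.08 after median-ratio scaling and -0.02 with the trend on gene length removed. After median-ratio scaling the split was 3 higher and 2 lower, against 10.4% and 7.74% of all genes, and the calls were then COL13A1, COL14A1 and COL25A1 upward and COL11A1 and COL23A1 downward. Without MT 3 the number called was 2 (6.9%, against 8.68% of all genes), and without NP 1 it was 8 of 31 tested (25.8%, against 33.1%). In both fits the share of the chains lay below that of all genes. It also did without NP 3 (11.1% against 13.5%), MT 2 (10.3% against 13.1%), LT 2 or LT 3. The same held with a pseudocount of 0.1 (13.8% against 17.6%) and median-ratio scaling (17.2% against 18.1%). It held as well with edgeR and TMM or DESeq2's size factors and with the length trend removed. Under the other alternatives the share lay above, as with DESeq2 (27.6% against 24.7%).

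Between MT and LT, 12 of the 29 chains were lower and none was higher with limma. These were 41.4% of the chains, against 29.4% of all genes called in either direction, 22.7% called lower and 6.73% called higher. The 12 were COL24A1, COL27A1, COL4A5, COL4A6, COL9A2, COL12A1, COL14A1, COL8A2, COL13A1, COL23A1, COL25A1 and COL15A1. All LT animals lay below all MT animals for 14 chains (48.3%), which was the case for 35.5% of all genes, and no chain had all LT animals above all MT animals, as 10.8% of all genes did. The median log2 fold change was -0.46, against -0.30 after median-ratio scaling and -0.14 with the trend on gene length removed. Median-ratio scaling left 10 chains lower (34.5%), against 15.3% of all genes lower and 14.0% higher, and DESeq2 called 1 chain, COL8A1, higher. Of 5 fibroblast markers 1 was higher and 2 were lower over the same step. PDGFRA fell from 74.3 ± 14.7 to 24.4 ± 7.40 TPM (log2 fold change -1.59, limma adjusted P = 0.00187) and LUM rose from 126 ± 13.5 to 243 ± 55.8 TPM (0.91, adjusted P = 0.00761), and the 5 markers summed to 403 to 487 TPM over the MT animals and 563 to 661 over the LT animals. Their part in the values of the chains was not tested.

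Between NP and LT, 17 of the 29 chains were lower and none was higher with limma (58.6%). Of all genes, 53.1% were called, 41.9% lower and 11.2% higher. For 15 chains (51.7%) every LT animal lay below every NP animal, against 40.6% of all genes, and the median log2 fold change of the chains was -0.69. This median was -0.46 after median-ratio scaling and -0.27 with the trend on gene length removed. Median-ratio scaling gave 11 lower chains (37.9%) and 1 higher, COL8A1, against 25.0% of all genes lower and 24.7% higher. The comparison shares its animals with the other 2 and is no separate evidence. The share of chains called from NP to LT fell below that of all genes without NP 1 (54.8% against 61.3%). It did so too with edgeR and TMM or DESeq2's size factors (41.4% against 49.4%) and after median-ratio scaling (41.4% against 49.7%). The same held with DESeq2 (48.3% against 53.6%), without MT 2 (48.3% against 51.5%) and with a filter at 10 TPM. Under the other alternatives the share lay above, as with edgeR and no filter (43.2% against 37.5%) or the length trend removed (44.8% against 44.6%). COL23A1, COL4A5 and COL4A6 were called lower in both steps (10.3% of the chains, against 2.31% of all genes), and 9 chains were called in no comparison (31%, against 39.3%), namely COL1A1, COL1A2, COL5A1, COL5A3, COL4A1, COL6A3, COL16A1, COL8A1 and COL17A1.

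**Figure D2:**
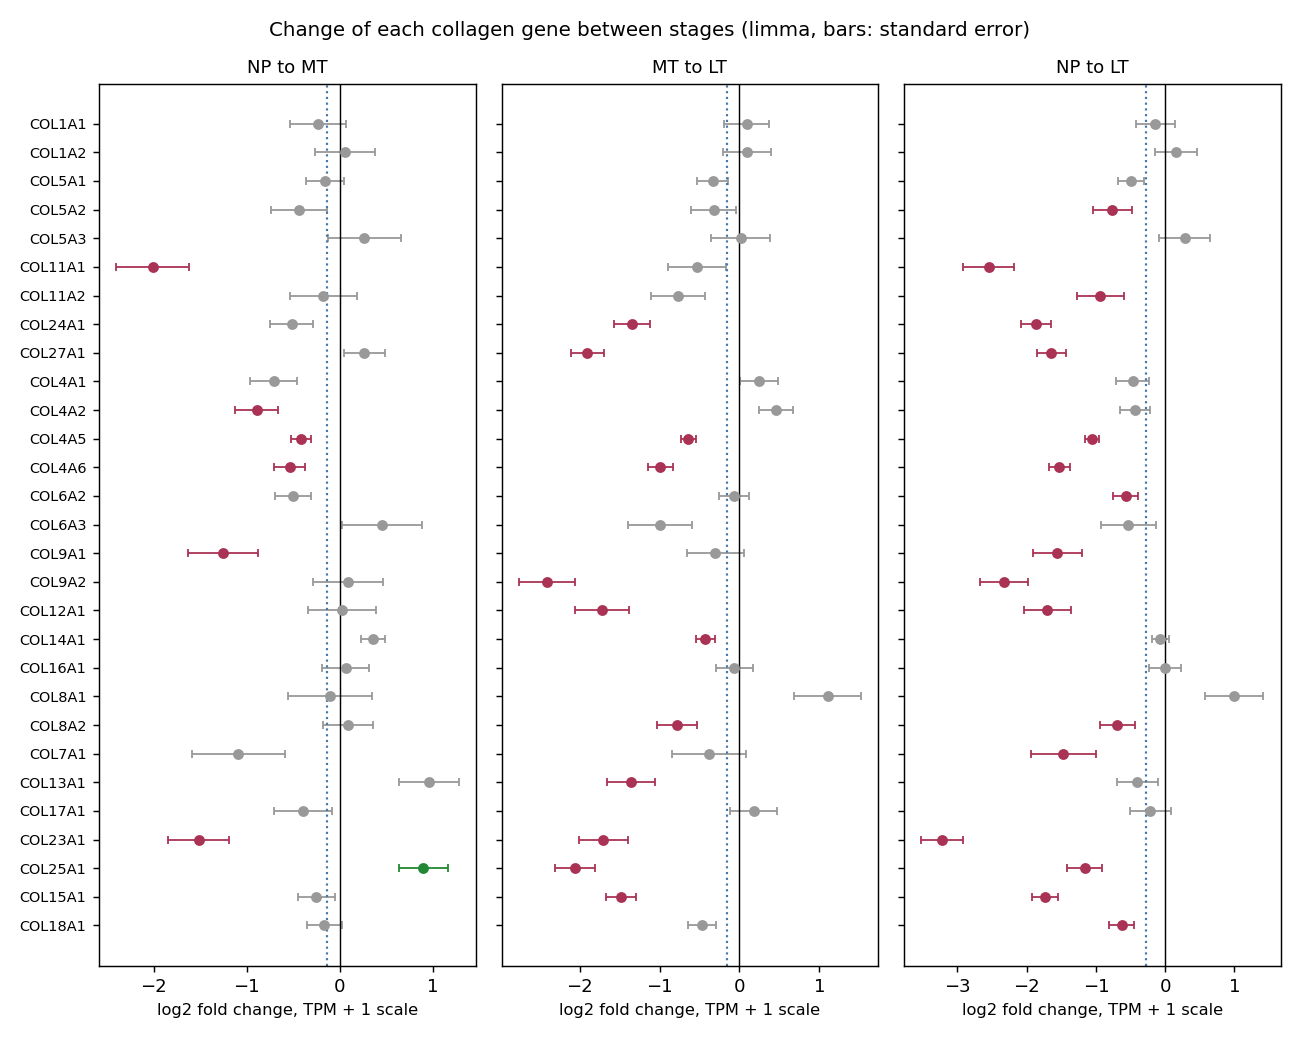
Log2 fold change of each tested chain on the log2(TPM + 1) scale in the 3 comparisons, with its standard error from limma as a bar. Red marks chains called lower, green the chain called higher and grey those not called at an adjusted P of 0.05, and the dotted blue line is the median of all 12645 tested genes. In the MT to LT and NP to LT panels all called chains lie left of zero.

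The fibrillar class has 9 members, all tested. The type I chains, which make the main fibril of most connective tissues, did not pass the test in any comparison. COL1A1 (ENSCPOG00000003329) was at 7443, 4531 and 4231 TPM in the NP animals, 6840.3, 3673 and 3495 in the MT animals and 6229, 4464, 4536 and 3992 in the LT animals. COL1A2 (ENSCPOG00000010646) was at 2931, 1536 and 1335 TPM in the NP animals, 2839.9, 1599 and 1480.1 in the MT animals and 2546, 1896, 2023 and 1705 in the LT animals. For both chains the stages overlapped and the first animal of each stage was the highest. Between MT and LT the log2 fold change was 0.09 for COL1A1 (standard error 0.28) and 0.10 for COL1A2 (standard error 0.30).

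Type V and type XI chains are minor fibril components that sit inside or on type I fibrils and are known to limit their diameter. COL11A1 (ENSCPOG00000012629) was at 37.9, 14.7 and 12.3 TPM in the NP animals, 5.01, 4.15 and 3.02 in the MT animals and 3.86, 2.76, 1.52 and 2.04 in the LT animals. Every NP animal lay above every pregnant animal, whereas MT and LT overlapped. COL11A1 fell between NP and MT with a log2 fold change of -2.01 (standard error 0.39, limma adjusted P = 0.00776), and the step to LT gave -0.54 (adjusted P = 0.283). Without NP 1, which had the highest value, the first of these changes was -1.54 (limma adjusted P = 0.00615).

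COL5A1 (ENSCPOG00000023391) had 229, 166 and 154 TPM in the NP animals, 202, 149 and 139.6 in the MT animals and 171, 121, 115 and 112 in the LT animals, with an overlap between neighbouring stages. It was called in no comparison, and the difference between NP and LT, -0.49 on the log2 scale, had an adjusted P of 0.0543 with limma. That difference passed the test in 4 of 25 alternatives, namely with the replicate number as a block (adjusted P = 0.007) and without NP 3, MT 1 or LT 1. COL5A2 (ENSCPOG00000006858) was at 201, 109 and 109.5 TPM in the NP animals, 149, 84.7 and 76.2 in the MT animals and 105, 76.3, 69.0 and 69.2 in the LT animals. It was lower in LT than in NP (log2 fold change -0.76, standard error 0.28, adjusted P = 0.0428), a call that was lost without NP 1 (-0.47, adjusted P = 0.148), without MT 2, LT 2, LT 3 or LT 4 and after median-ratio scaling (adjusted P = 0.231). COL5A3 ranged from 34.2 to 112 TPM over all animals and did not pass the test.

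COL11A2 (ENSCPOG00000020466) lay near the threshold, at 1.80, 3.50 and 4.45 TPM in the NP animals, 4.19, 2.44 and 1.67 in the MT animals and 2.11, 1.38, 0.821 and 0.549 in the LT animals. NP and LT overlapped, because NP 1 lay below LT 1. The log2 fold change between NP and LT was -0.94 (standard error 0.34, limma adjusted P = 0.039), with an adjusted P of 0.0776 after median-ratio scaling, and the call was lost without NP 2, MT 2, LT 2, LT 3 or LT 4.

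COL24A1 and COL27A1 encode fibrillar chains with short or interrupted helices that are best known from developing bone and cartilage. COL27A1 (ENSCPOG00000008089) was at 26.2, 22.9 and 20.2 TPM in the NP animals, 37.9, 29.2 and 19.2 in the MT animals and 7.69, 6.02, 7.43 and 5.72 in the LT animals. COL24A1 (ENSCPOG00000001259) was at 3.28, 5.57 and 4.03 TPM in the NP animals, 2.58, 3.45 and 2.03 in the MT animals and 0.559, 0.455, 0.375 and 0.354 in the LT animals. All LT animals lay below all NP and MT animals for both genes. Between MT and LT COL27A1 fell by 1.90 on the log2 scale (standard error 0.21, limma adjusted P = 0.00162) and COL24A1 fell by 1.34 (standard error 0.22, adjusted P = 0.00358). The LT values of COL24A1 rested on 34 to 54 reads per animal, those of COL27A1 on 754 to 1060.

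The summed TPM of the 37 chains ranged from 8413 to 15210 in NP, from 7571 to 13299 in MT and from 7686 to 11306 in LT, so that the stages overlapped. Type I chains made up 68.2, 66.6 and 66.2% of this sum in the NP animals, 72.8, 65.9 and 65.7% in the MT animals and 77.6, 75.4, 77.7 and 74.1% in the LT animals. The share was thus higher in every LT animal than in every NP or MT animal, the nearest being MT 1. The TPM of all chains other than type I summed to 2847 to 4836 in NP, 2595 to 3619 in MT and 1886 to 2530 in LT. These sums and shares describe the members and were not tested. COL3A1 and COL6A1 are not in the sum, so the shares are not those of all collagen transcripts.

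**Figure D3:**
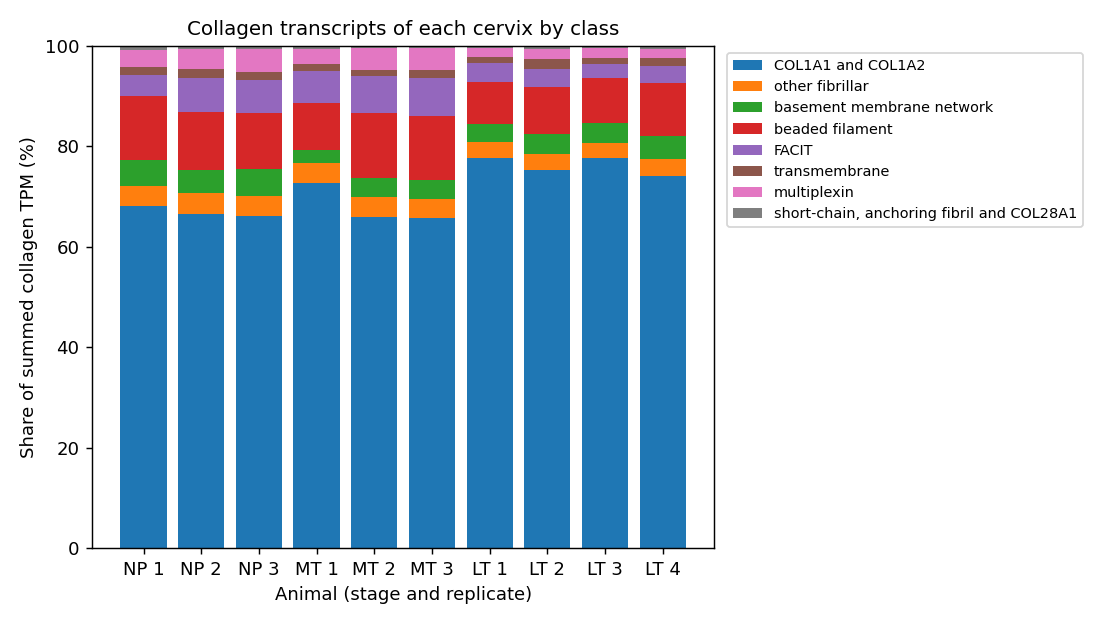
Share of each collagen class in the summed TPM of the 37 chains of each animal, in percent, with the type I chains shown apart from the other fibrillar chains. The sum lacks COL3A1 and COL6A1. Each bar is 1 animal and adds to 100%. The type I segment is 65.7 to 72.8% in NP and MT animals and 74.1 to 77.7% in LT animals, and the FACIT segment is at most 3.79% in LT and at least 4.28% elsewhere.

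Of the basement membrane chains, 4 of 6 were tested. Type IV collagen is the sheet on which epithelium, endothelium and muscle cells rest. COL4A1 and COL4A2 form its widespread trimer, and COL4A5 and COL4A6 belong to trimers of more restricted occurrence, for example around smooth muscle and under some epithelia. The 2 pairs did not show the same values over the stages.

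COL4A5 (ENSCPOG00000015081) was at 43.3, 37.4 and 41.9 TPM in the NP animals, 30.9, 32.6 and 27.4 in the MT animals and 17.5, 20.8, 18.1 and 20.1 in the LT animals. COL4A6 (ENSCPOG00000015073) was at 20.4, 28.8 and 27.9 TPM in the NP animals, 14.1, 18.97 and 18.96 in the MT animals and 7.05, 9.11, 8.44 and 8.17 in the LT animals. For both genes the 3 stages were fully separated, with every NP animal above every MT animal and every MT animal above every LT animal. Between MT and LT the log2 fold change was -0.64 for COL4A5 (standard error 0.10, limma adjusted P = 0.00317) and -0.99 for COL4A6 (standard error 0.15, adjusted P = 0.00318). The COL4A5 call in this step was lost when the trend on gene length was removed (-0.29, adjusted P = 0.116) and with edgeR and the replicate block. Between NP and MT it was -0.42 for COL4A5 (adjusted P = 0.0227) and -0.54 for COL4A6 (adjusted P = 0.048), and both of these calls were lost after median-ratio scaling (adjusted P = 0.125 and 0.0693). The NP to MT call was lost without NP 3 or MT 3 for COL4A5, and for COL4A6 without any animal other than NP 1. The 8 smooth muscle markers summed to 12621 to 18994 TPM over the MT animals and 19044 to 39435 over the LT animals, while the NP animals spanned 8168 to 30766. MT and LT did not overlap, but LT 1 and LT 2 lay just above the MT animals, at 19050 and 19044 TPM. LT 3 and LT 4 stood apart at 38141 and 39435 TPM. The median log2 fold change of these markers between MT and LT was 0.62, and 1 of the 8, SMTN (smoothelin, 1.24, limma adjusted P = 0.0225), was called higher (12.5%), against 6.73% of all genes. Their part in the values of the chains was not tested.

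COL4A1 (ENSCPOG00000026271) was at 483, 227 and 236 TPM in the NP animals, 208, 176 and 161 in the MT animals and 250.0, 199.6, 198 and 210.3 in the LT animals. COL4A2 (ENSCPOG00000010611) was at 228, 123 and 135 TPM in the NP animals, 106, 69.8 and 78.5 in the MT animals and 129.9, 103, 111 and 119 in the LT animals. The MT animals were below all NP animals for both genes, and LT overlapped with MT. COL4A2 was lower in MT than in NP (log2 fold change -0.89, standard error 0.23, limma adjusted P = 0.0234), a call lost after median-ratio scaling (adjusted P = 0.0772) and without MT 2 or MT 3. The change of COL4A1 was -0.71 (standard error 0.25) and did not pass (adjusted P = 0.0776). From MT to LT the estimates were 0.24 for COL4A1 (adjusted P = 0.466) and 0.46 for COL4A2 (adjusted P = 0.124), and without NP 1 that of COL4A2 passed (adjusted P = 0.0279).

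COL4A3 and COL4A4, known from the basement membrane of kidney and lung, stayed below the mean of 3 TPM. The NP animals had 0.949 to 3.47 TPM of COL4A3, the MT animals 1.86 to 2.65 and the LT animals 0.110 to 0.567. For COL4A4 the same ranges were 0.820 to 2.35, 0.741 to 0.893 and 0.208 to 0.614 TPM.

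Type XV and type XVIII collagens, the multiplexins, carry glycosaminoglycan side chains and lie at basement membrane zones of vessels, muscle and epithelium. COL15A1 (ENSCPOG00000014886) was at 344, 236 and 269 TPM in the NP animals, 230.4, 251 and 222 in the MT animals and 117, 81.1, 76.0 and 66.5 in the LT animals. NP and MT overlapped, and all LT animals were below both. COL15A1 fell by 1.48 on the log2 scale between MT and LT (standard error 0.19, limma adjusted P = 0.00182). The exact permutation of the F statistic over the 3 stages gave P = 0.000952, and the exact test of MT against LT P = 0.0286, the smallest that 3 animals against 4 allow.

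COL18A1 (ENSCPOG00000020725), whose end fragment is endostatin, was at 172, 125 and 123 TPM in the NP animals, 164, 104 and 109.9 in the MT animals and 93.8, 97.5, 88.0 and 78.1 in the LT animals. The LT animals lay below all others. The call was from NP to LT (log2 fold change -0.63, standard error 0.17, limma adjusted P = 0.013) and was lost after median-ratio scaling (-0.34, adjusted P = 0.186). Over the same stages the summed TPM of 6 endothelial markers was 135 to 183 in NP, 98.7 to 143 in MT and 52.6 to 87.4 in LT, with 1, 5 and 6 of the 6 called lower from NP to MT, MT to LT and NP to LT, against 12.2%, 22.7% and 41.9% of all genes, and none of them was at 0 TPM in every animal. After median-ratio scaling 1, 3 and 6 of these markers were lower, against 7.74%, 15.3% and 25.0% of all genes. Their part in the values of the basement membrane and multiplexin chains was not tested.

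Type VI collagen forms beaded filaments around cells, and 2 of its 4 chains were tested. COL6A2 (ENSCPOG00000021819) was at 1174, 783 and 760.3 TPM in the NP animals, 755, 644 and 505 in the MT animals and 686, 599, 519.8 and 596 in the LT animals. NP lay above both pregnant stages. COL6A2 was lower in LT than in NP (log2 fold change -0.57, standard error 0.18, limma adjusted P = 0.024), but not after median-ratio scaling (adjusted P = 0.305) and not without NP 1 (-0.37, adjusted P = 0.0715) or LT 3. The exact permutation of the F statistic over the stages gave P = 0.0329.

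COL6A3 (ENSCPOG00000011331), the large chain that completes the type VI trimer, was at 762, 264 and 168 TPM in the NP animals, 484, 398 and 456 in the MT animals and 268, 185, 229 and 219 in the LT animals. Each LT value was below each MT value, and the NP animals spread over the range of both. The log2 fold change between MT and LT was -0.99 (standard error 0.40). It did not pass over all genes with limma (adjusted P = 0.0871). The exact test of MT against LT, on this gene alone, gave P = 0.0286, the smallest possible for 3 against 4 animals. The exact permutation of the F statistic over the 3 stages gave P = 0.201. The change passed in 3 of 25 alternatives, without NP 1 (adjusted P = 0.00298), without NP 3 and when only the 2 stages were fitted (adjusted P = 0.00286), and its adjusted P was highest, 0.405, when the trend on gene length was removed. COL6A5 was at 0.167, 3.99 and 2.77 TPM in NP and at most 0.343 TPM in the pregnant animals, and COL6A6 did not exceed 0.430 TPM in any animal.

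FACIT collagens lie on the surface of fibrils and connect them with other matrix components, and 5 of 7 were tested. COL12A1 (ENSCPOG00000014388), found in tissues under tension, was at 456, 427 and 372 TPM in the NP animals, 551, 373 and 369 in the MT animals and 235, 144, 66.3 and 119 in the LT animals. Every LT animal lay below every NP and MT animal, with a spread among LT animals from 66.3 to 235 TPM. COL12A1 fell by 1.72 on the log2 scale between MT and LT (standard error 0.34, limma adjusted P = 0.00695), and the exact permutation of the F statistic gave P = 0.0119. Between NP and MT the log2 fold change was 0.02 (adjusted P = 0.974).

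COL14A1 (ENSCPOG00000008500) is the closest relative of COL12A1 among these genes. It was at 136, 135 and 115 TPM in the NP animals, 188, 156 and 152 in the MT animals and 136, 118, 132 and 105 in the LT animals. All MT animals were above all animals of the other stages. The decline to LT passed the test (log2 fold change -0.43, standard error 0.12, limma adjusted P = 0.0242) and was lost after median-ratio scaling (-0.26, adjusted P = 0.158) and without MT 1, MT 2, LT 2 or LT 4, and the difference of 0.36 from NP to MT had an adjusted P of 0.0764. COL16A1 ranged from 30.1 to 61.1 TPM over all animals and was called in no comparison.

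Type IX chains coat the fibrils of cartilage. COL9A2 (ENSCPOG00000011524) was at 24.9, 12.2 and 14.5 TPM in the NP animals, 28.6, 19.6 and 9.499 in the MT animals and 3.23, 2.81, 2.51 and 1.61 in the LT animals. COL9A1 (ENSCPOG00000005651) was at 1.85, 3.49 and 6.61 TPM in the NP animals, 1.64, 0.712 and 0.589 in the MT animals and 0.430, 1.09, 0.314 and 0.524 in the LT animals. The LT animals were below all others for COL9A2, while for COL9A1 NP stood above MT and LT, which overlapped. Between NP and LT the log2 fold change was -2.32 for COL9A2 (standard error 0.35, limma adjusted P = 0.000605) and -1.56 for COL9A1 (standard error 0.35, adjusted P = 0.00481). The call of COL9A1 from NP to MT (-1.25, adjusted P = 0.0452) was lost after median-ratio scaling (adjusted P = 0.0525) and without NP 2, MT 2, MT 3 or any LT animal, and the LT values of COL9A1 rested on 22 to 76 reads.

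COL9A3 was at 0.356 to 2.10 TPM, and COL22A1 had no read in LT and at most 7 in any other animal. Of 8 cartilage markers 6 have a row in the table, and MATN1, MATN3 and CHAD were below 3 TPM in all animals. The summed TPM of these 6 was 19.4 to 24.9 in NP, 25.1 to 46.3 in MT and 39.9 to 71.2 in LT. Most of the sum in LT was COMP, at 35.6 to 66.7 TPM, which rose from NP to LT (log2 fold change 1.97, limma adjusted P = 0.0004). Of the 3 markers tested, 1 was higher and none lower between NP and MT, against 6.27% and 12.2% of all genes. Between MT and LT 1 was higher and 1 lower, against 6.73% and 22.7%, and between NP and LT 2 were higher and 1 lower, against 11.2% and 41.9%. HAPLN1, a link protein of cartilage matrix, was lower in LT than in NP (-1.57, adjusted P = 0.00346), and the markers did not share 1 direction. LECT1, which encodes a chondrocyte-derived glycoprotein, rose between NP and MT from a mean of 0.275 to 13.0 TPM (3.41, limma adjusted P = 0.0011) and then fell to 2.70 TPM in LT (-2.03, adjusted P = 0.00616).

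Of the short-chain collagens, which form hexagonal networks, type VIII was tested and COL10A1 was not, with at most 8 reads in an animal. COL8A1 (ENSCPOG00000008985) was at 11.4, 6.71 and 6.84 TPM in the NP animals, 16.4, 5.04 and 4.76 in the MT animals and 18.9, 23.0, 9.25 and 21.2 in the LT animals. It was above all earlier animals in LT 1, LT 2 and LT 4 but not in LT 3. The log2 fold change to LT was 1.10 from MT (standard error 0.42, limma adjusted P = 0.0718) and 1.00 from NP (adjusted P = 0.0678), so that it was not called, whereas edgeR, DESeq2 and median-ratio scaling called it higher in LT than in NP. Without NP 1 the latter change was 1.22 (limma adjusted P = 0.0492), and it also passed without MT 1 or LT 3, as did the change from MT.

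COL8A2 (ENSCPOG00000006158) was at 3.78, 5.75 and 5.21 TPM in the NP animals, 5.09, 5.64 and 4.96 in the MT animals and 4.51, 3.01, 1.69 and 1.90 in the LT animals. It was lower in LT than in MT (log2 fold change -0.78, standard error 0.25, limma adjusted P = 0.0416) and than in NP (-0.69, adjusted P = 0.0402). Both calls were lost after median-ratio scaling (adjusted P = 0.0582 and 0.122) and without any single animal other than NP 1 and LT 1.

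The transmembrane collagens are surface proteins with a collagenous stalk, and all 4 were tested. COL23A1 (ENSCPOG00000021594) was at 36.0, 23.4 and 14.1 TPM in the NP animals, 7.07, 7.83 and 7.18 in the MT animals and 2.18, 2.23, 1.49 and 0.698 in the LT animals. The 3 stages were separated in this order without overlap. COL23A1 fell by 1.52 on the log2 scale from NP to MT (standard error 0.33, limma adjusted P = 0.0124) and fell by 1.70 in the step to LT (standard error 0.31, adjusted P = 0.0047). The NP to LT log2 fold change was -3.22 (limma adjusted P = 0.000108), and the LT values rested on 23 to 79 reads.

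COL25A1 (ENSCPOG00000012595), known from neurons and developing muscle, was at 1.22, 2.43 and 1.79 TPM in the NP animals, 2.83, 5.13 and 4.87 in the MT animals and 0.354, 0.229, 0.0758 and 0.301 in the LT animals. The MT animals were above all NP animals and the LT animals below all of them. It rose from NP to MT (log2 fold change 0.90, standard error 0.27, limma adjusted P = 0.0432) and fell to LT (-2.06, standard error 0.25, adjusted P = 0.00182). The rise was lost without NP 1 (0.74, adjusted P = 0.0576) and without any other single animal except MT 1, and the LT values rested on 3 to 13 reads.

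COL13A1 (ENSCPOG00000002575), a chain of cell adhesion sites, was at 8.21, 14.6 and 12.8 TPM in the NP animals, 25.4, 20.7 and 24.2 in the MT animals and 13.7, 9.71, 8.54 and 4.44 in the LT animals. The MT animals stood above all others. COL13A1 fell by 1.36 on the log2 scale between MT and LT (standard error 0.30, limma adjusted P = 0.0101). The difference from NP to MT of 0.96 (standard error 0.32) had an adjusted P of 0.064 with limma, and edgeR, DESeq2 and median-ratio scaling called it.

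COL17A1 (ENSCPOG00000000997), a protein of the hemidesmosome, holds basal keratinocytes to their basement membrane, and COL7A1 (ENSCPOG00000023738) forms the fibrils that anchor that membrane to the stroma. COL17A1 was at 197, 115 and 106 TPM in the NP animals, 161, 68.3 and 94.6 in the MT animals and 111, 149, 100.3 and 105 in the LT animals, and it was called in no comparison. COL7A1 was at 97.3, 41.5 and 37.1 TPM in the NP animals, 61.0, 14.4 and 16.4 in the MT animals and 16.8, 18.3, 18.7 and 20.7 in the LT animals. For COL7A1 every LT animal was below every NP animal, and MT 1 stood above the other MT animals. Between NP and MT the log2 fold change of COL7A1 was -1.09 (limma adjusted P = 0.152), and without MT 1 it was -1.73 and called (adjusted P = 0.0119). COL7A1 was lower in LT than in NP (log2 fold change -1.47, standard error 0.47, limma adjusted P = 0.0236), a call lost without NP 1 (-1.04, adjusted P = 0.0823) and after median-ratio scaling (adjusted P = 0.0751). The 6 squamous markers summed to 1021 to 3235 TPM over the NP animals, 168 to 1232 over the MT animals and 1497 to 2941 over the LT animals, with 3 of 6 lower (50%, against 41.9% of all genes) and none higher from NP to LT. From NP to MT 3 of 6 were lower (50%, against 12.2% of all genes) and none was higher. From MT to LT 1, KRT14, was higher (16.7%, against 6.73%) and none was lower. KRT14 made up most of the LT sums, at 1430.1 to 2803 TPM, whereas IVL and TGM1 were below 10 TPM in all LT animals and SPRR3 was at 0 TPM in all of them. Their part in the values of COL7A1 and COL17A1 was not tested.

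COL28A1, of a class of its own here, ranged from 1.74 to 2.87 TPM over the NP animals, from 1.05 to 1.13 over the MT animals and from 1.12 to 1.64 over the LT animals. It was below the filter on low values, as were 7 other chains. In a fit without the filter, over 18100 genes, COL28A1 was lower in MT than in NP (log2 fold change -0.70, limma adjusted P = 0.0182) and lower in LT than in NP (-0.49, adjusted P = 0.0226). COL4A3 was lower in LT than in MT in that fit (-1.21, adjusted P = 0.018), COL6A6 was lower in MT than in NP, and COL4A3, COL4A4, COL6A5, COL6A6 and COL9A3 were lower in LT than in NP. In all, 8, 12 and 21 of the 37 chains were called without the filter for NP to MT, MT to LT and NP to LT (21.6, 32.4 and 56.8%), against 14%, 19.8% and 41.8% of all genes.

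Ratios of chains within an animal do not depend on how its library was scaled. Of 6 ratios planned between chains of the same type, 3 could be formed. Those with COL6A1 could not, because no gene in the table carries that name. Both chains of a ratio had to reach 3 TPM in every animal. COL8A1 to COL8A2 was left out by this rule, with COL8A2 at 1.69 TPM in LT 3. The ratio of COL1A1 to COL1A2, which meet as 2 to 1 in the type I trimer, was 2.54, 2.95 and 3.17 in NP, 2.41, 2.30 and 2.36 in MT and 2.45, 2.35, 2.24 and 2.34 in LT. All NP animals were above all pregnant animals, and MT and LT overlapped. The exact permutation of the F statistic on log2 ratios gave P = 0.0143, and 0.0429 when adjusted over the 3 ratios, and the adjusted value exceeded 0.05 when any animal other than LT 1 was left out. For COL4A1 to COL4A2 the ratio lay between 1.75 and 2.52 over all animals (exact P = 0.127) and for COL5A1 to COL5A2 between 1.14 and 1.83 (exact P = 0.116), with an adjusted P of 0.127 for both.

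Further ratios were formed after the values were seen and are given without a test. COL4A5 to COL4A1 was 0.0897, 0.165 and 0.178 in NP, 0.149, 0.185 and 0.170 in MT and 0.0699, 0.104, 0.0917 and 0.0955 in LT. All MT animals were above all LT animals, and NP 1 fell among the LT animals. COL6A3 to COL6A2 was 0.649, 0.337 and 0.222 in NP, 0.642, 0.618 and 0.904 in MT and 0.390, 0.309, 0.441 and 0.368 in LT, so that MT lay above LT here too while NP spanned from below LT to within MT. COL11A1 to COL5A1 was 0.0801 to 0.166 in NP and 0.0133 to 0.0279 in the pregnant animals.

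**Figure D4:**
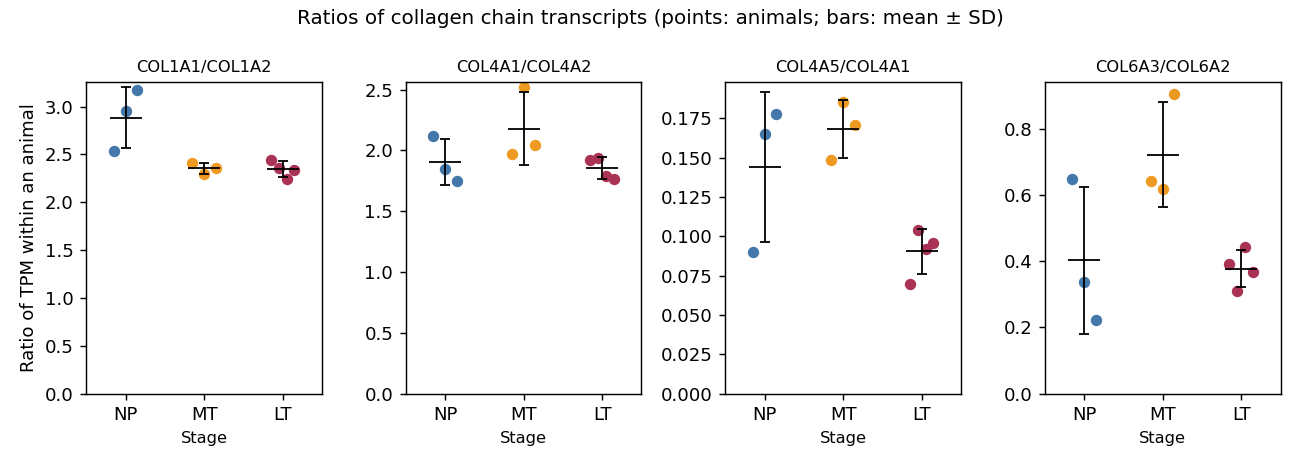
Ratio of the TPM of chain pairs within each animal, by stage. Points are animals, the horizontal bar is the stage mean and the error bar the SD (n = 3, 3 and 4). COL1A1/COL1A2 is 2.54 to 3.17 in NP and 2.24 to 2.45 in the pregnant animals, and COL4A5/COL4A1 is at most 0.104 in LT and at least 0.149 in MT.

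Fibrillar collagen is hydroxylated, glycosylated, trimmed and cross-linked by dedicated enzymes. Of 28 genes for these steps 26 have a row and 25 were tested. From NP to MT, 2 were higher and 3 lower, from MT to LT 6 were higher and 2 lower, and from NP to LT 5 were higher and 7 lower. For NP to MT these are 8% higher and 12% lower, against 6.27% and 12.2% of all tested genes. For MT to LT they are 24% higher and 8% lower, against 6.73% and 22.7%. For NP to LT they are 20% higher and 28% lower, against 11.2% and 41.9%. After median-ratio scaling 7 enzymes were higher and 1 lower in the MT to LT step, where 14.0% of all genes were higher and 15.3% lower, and the NP to LT split turned to 8 higher and 3 lower, against 24.7% and 25.0%. Their median log2 fold changes were -0.26, 0.07 and -0.23. From MT to LT the largest rise was that of LOXL2, a cross-linking lysyl oxidase, from 49.0 ± 9.503 (SD, n = 3) to 96.6 ± 11.9 TPM (SD, n = 4), or by 0.97 on the log2 scale (limma adjusted P = 0.00321). The largest decline was that of GLT25D2, a collagen galactosyltransferase, from 3.34 ± 0.169 to 1.38 ± 0.248 TPM (-0.87, adjusted P = 0.00923).

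From NP to MT, ADAMTS2, which removes the amino-terminal propeptide, rose from 74.4 ± 39.0 to 160.2 ± 5.23 TPM (log2 fold change 1.22, limma adjusted P = 0.018). BMP1, which removes the carboxy-terminal propeptide, fell from 92.1 ± 17.8 to 48.0 ± 22.1 TPM (-0.998, adjusted P = 0.0263) and was at 43.3 ± 4.16 TPM in LT. Its enhancer PCOLCE rose from 209.6 ± 15.9 TPM in NP to 418 ± 89.0 TPM in LT (log2 fold change 0.97, adjusted P = 0.00352), so that the propeptidases and the enhancer did not share 1 direction.

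Of 10 collagen receptors 9 have a row, 8 were tested and GP6 had no read in any animal. ITGA10, an integrin subunit known from cartilage, had a mean of 3.10 ± 1.10 TPM over the NP animals, 7.02 ± 0.286 over the MT animals and 1.47 ± 0.465 over the LT animals. It rose from NP to MT (log2 fold change 1.00, limma adjusted P = 0.017) and fell to LT (-1.72, adjusted P = 0.00182), and no other receptor was called in either step (12.5% of the 8 in each, against 18.5% and 29.4% of all genes). After median-ratio scaling DDR1, a receptor tyrosine kinase for collagen, was also called, higher in LT than in MT. From NP to LT 3 receptors were lower (37.5%, near the 41.9% of all genes) and none was higher, the largest change being that of ITGA11, a fibroblast receptor for type I collagen, from 30.1 ± 16.2 to 4.39 ± 3.54 TPM (-2.61, adjusted P = 0.00362).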

How the data were processed

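The authors sequenced strand-specific libraries of polyadenylated RNA with single reads of 75 bp, called bases with CASAVA 1.8.2, aligned with TopHat2 to the guinea pig genome cavPor3 and counted reads per Ensembl gene with HTSeq 0.5.4p1, and the strand setting of the counting is not given in the sources used here. The deposited table holds these counts and the TPM values that the authors computed from them for 25028 genes in 10 animals. Stage means, SDs and ratios were computed from the deposited TPM. limma 3.58.1 (R 4.3.3, trend, pseudocount 1, two-sided) was fitted with stage as the only term. Exact permutation tests of single genes used square-root TPM and were two-sided; the smallest possible P is 0.1 for 3 against 3 animals, 0.0286 for 3 against 4 and 0.000476 for the F statistic. Samples were grouped by the stage in their labels. Replicate numbers mark different animals, and no 2 libraries agreed within counting noise. P-values measure the spread between these animals.

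Alternatives were edgeR 4.0.16 (quasi-likelihood, TMM) and DESeq2 1.42.0 on the deposited counts, median-ratio scaled TPM, other pseudocounts and filters, a replicate block, each animal left out and, added after the values were seen, removal of the trend on gene length and further ratios. The limma and edgeR tests were also run on simulated counts with changes planted in LT. These counts held no shift over most genes, no trend on gene length and no animal that stood apart. They therefore do not cover these features of the data. All genes matching the name rule were accounted for. Full values are given for those called in any comparison and the 2 most abundant of each class, and for the enzyme and receptor lists the largest called change in each direction. The members and lists were chosen with earlier results of these data known.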

Additional observations from a re-analysis of the deposited data

Results flagged for a closer look

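In the LT group COL5A1 was at 171 TPM in LT 1 and at 121, 115 and 112 TPM in the other animals, so that the gap between the highest animal and the next took 0.856 of the range, more than Dixon's 95% critical value for 4 samples allows. This was the only one of 49 sets of LT values to do so. Chance alone gives such a gap in about 1 in 20 sets.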

How the results depend on the processing

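Of the 36 calls of single chains, 22 held under every one of up to 25 alternatives (2 from NP to MT, 9 from MT to LT and 11 from NP to LT), 14 were lost under at least 1, and none changed direction. Median-ratio scaling took away 12 of the 36. The number of chains called from NP to MT was 7, but 4 with a pseudocount of 0.1, with edgeR and TMM and with edgeR and DESeq2's size factors, 3 when only the 2 stages were fitted, and 2 to 8 with 1 animal left out. It was 2 without MT 3, 3 without NP 3 or MT 2, and 4 without NP 2, LT 2 or LT 3. From MT to LT 10 to 16 and from NP to LT 14 to 18 chains were called with 1 animal left out, and 9 to 13 and 12 to 22 under the other alternatives. The exact P of COL12A1 from MT to LT was 0.0571 on log2(TPM + 1). With 1 animal left out, the adjusted P of the ratio COL1A1/COL1A2 lay between 0.0429 and 0.117.

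Over all tested genes, same-numbered animals did not deviate together in all pairs of stages (correlations from -0.287 to 0.254). For differently numbered animals the correlations were -0.262 to 0.248. These values are not of the chains alone, for which replicate 1 was most often the highest, for 21 chains in NP, 22 in MT and 21 in LT. With the replicate number as a block limma called 7, 10 and 17 chains, of which 4, 10 and 15 were among those called without it, and edgeR called 5, 9 and 12. With the block the shares were 24.1, 34.5 and 58.6% of the chains against 12.5, 13.4 and 43.1% of all genes for limma, and 17.2, 31.0 and 41.4% against 11.9, 15.1 and 39.1% for edgeR.

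All 29 tested chains are at or above the median length of tested genes, and the dependence of TPM on length was lower in LT (slopes of -0.025 to -0.012 on the log2 scale per doubling) than in NP and MT (0.003 to 0.027). Removal of this trend left 9 chains lower and 1, COL4A2, higher from MT to LT (13.3% of all genes lower and 11% higher), and 11 lower and 2, COL14A1 and COL8A1, higher from NP to LT (22.5% and 22.1%). The estimate of COL5A1 from NP to LT, which was not called, then changed sign to 0.041. Depth limits the values of COL23A1, COL24A1, COL25A1, COL9A1, COL9A2 and COL8A2 in LT, which rest on fewer than 200 reads per animal.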
